A study of Mus musculus with 42 samples.

Results

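The proximal tubule fraction (PT) of the contralateral kidney was compared with the Total fraction of the same kind of kidney, in 14 of the 42 libraries of the series. The members were the raw count columns labelled CLK (contralateral kidney) and PT, 7 libraries, set against the columns labelled CLK and Total, 7 libraries. PT held 3 female and 4 male libraries, and Total held 3 female and 4 male libraries. All came from the renal cortex of mice of 12 weeks with ureteral obstruction on the other side, and the labels call the contralateral kidneys healthy controls. PT RNA was what anti-GFP-coated beads bound in a postmitochondrial supernatant of cortex, a method known as translating ribosome affinity purification (TRAP). The Total libraries are labelled as total kidney. The protocol also mentions an unbound fraction, and the labels do not say whether Total is that fraction. They do not give the strain, the promoter that drives the GFP tag or the day on which a contralateral kidney was taken either. The other 28 libraries are PT and Total fractions of obstructed kidneys at day 5 and day 10.

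The proximal tubule reabsorbs most of the filtered phosphate, glucose, amino acids and small proteins, and it secretes organic anions and cations. It runs through the segments S1, S2 and S3, which differ in their transporters, and it makes glucose and burns fatty acids while using little glycolysis. In TRAP a ribosomal protein carries GFP in a chosen cell type, and RNA on tagged ribosomes is pulled down, while nuclear and mitochondrially encoded RNAs are not bound by those ribosomes.

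Libraries held 15.5 to 28.1 M counts in PT (median 20.98 M) and 10.4 to 22.5 M in Total (median 18.5 M). The gene with most counts took 9.74 to 14.1% of a PT library and 4.50 to 7.05% of a Total library. In the first principal component of the 7 PT libraries, which held 31.9% of the variance, female replicate 3 and male replicate 2 stood apart at 50.4 and 61.5, against -29.9 to -17.99 for the other 5. These 2 libraries also had the lowest levels of Lars2, a mitochondrial leucyl-tRNA synthetase gene, at 3392 and 4380 CPM (counts per M counts, scaled by TMM), against 7959 to 19032 CPM in the other 5. Results that rest on them are given with and without them. In the first principal component of the 7 Total libraries (31.04% of the variance), female replicate 3 lay at 59.4, against -43.02 to 20.8 for the rest. It also had the highest Lars2 level in Total, 18106 CPM, against 4933 to 10402 CPM. This Total library was left out alone, but not together with the PT libraries that stood apart. The labels do not say that replicates are separate animals, so p-values measure only the spread between these libraries.

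Genes were tested with edgeR's quasi-likelihood test, PT over Total, each sex given the same weight, and p-values adjusted by Benjamini-Hochberg over 17110 genes. A gene is called higher or lower below at an adjusted p under 0.05, and changes of at least 2-fold are counted separately. In PT 2835 genes were higher (16.6% of those tested) and 5125 were lower (30%). Of these, 198 were at least 2-fold higher (1.16%) and 3925 at least 2-fold lower (22.9%). All 7 PT libraries lay above all 7 Total libraries for 523 genes (3.06%) and below them for 2584 genes (15.1%). The median log2 difference over all tested genes was -0.07. This split depends on the scaling, with TMM factors of 0.642 to 0.818 in PT and 0.821 to 1.01 in Total: with library size alone the median was -0.38, a shift of -0.31, and 652 genes were higher and 6852 lower. With the replicate number as a block 4303 genes were higher and 4620 lower of the 14854 genes tested in both fits. Without the PT libraries that stood apart 2602 genes were higher and 5037 lower, and the 198 genes then at least 2-fold higher held 110 of the 198 above. Differences between these fractions cannot tell cell type of origin from ribosome binding, nor fewer cells of a type from less RNA per cell.

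**Figure D1:**
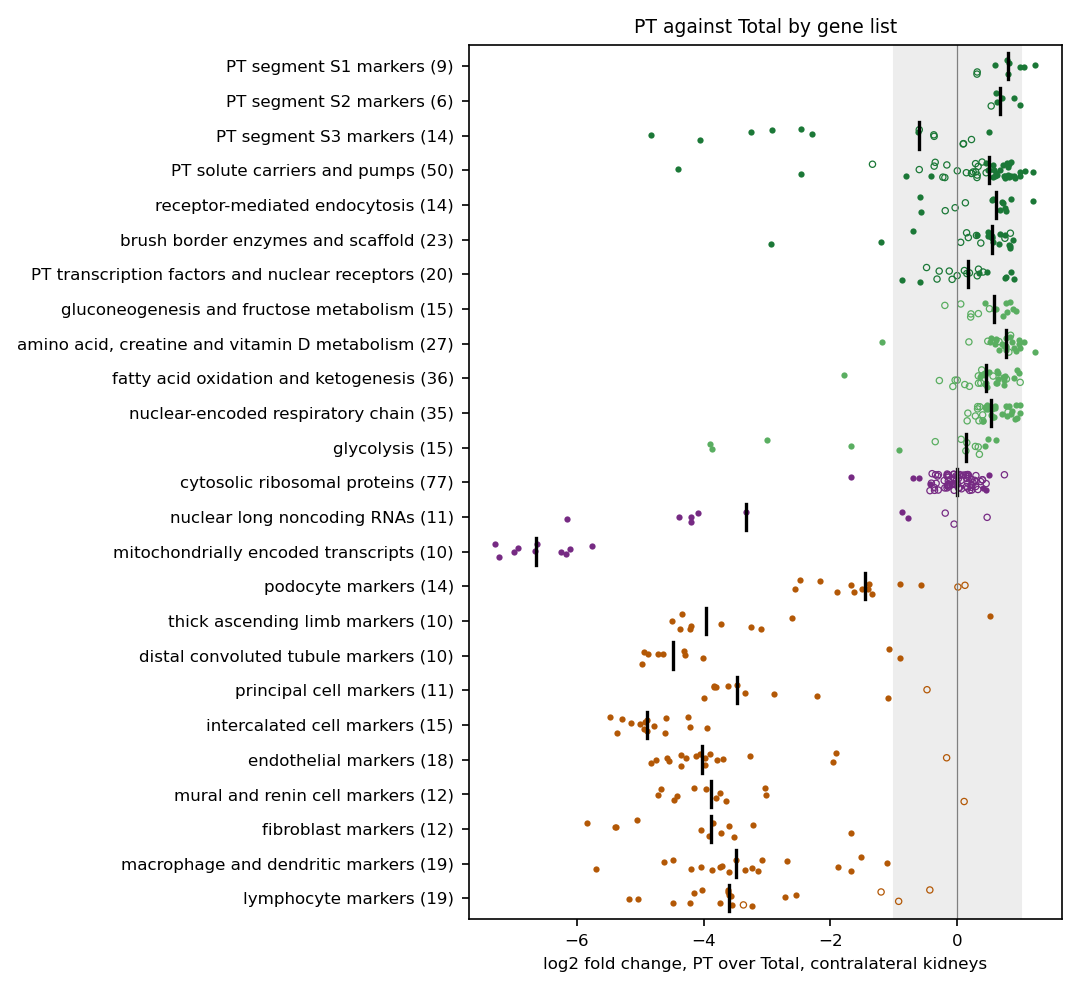
Log2 fold change of PT over Total in contralateral kidneys (x axis) for the tested members of each gene list (y axis, number of genes in brackets), 1 point per gene, filled where the adjusted p was under 0.05, with the list median as a bar and changes of less than 2-fold shaded. Proximal tubule and metabolic lists lie mostly right of 0, apart from S3 markers. Glycolysis has a median of 0.14, with 4 genes at least 2-fold lower. Markers of other cell types and mitochondrially encoded transcripts lie far to the left.

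Carriers of the proximal tubule were moderately higher in PT. Of 50 tested solute carriers and pumps 27 were higher, 2 of them at least 2-fold, and 4 were lower, 2 of them at least 2-fold. Their median log2 difference was 0.49, beside -0.07 over all genes. Over the 6501 tested genes with a Total mean of at least 20 CPM the median was 0.20, with 2085 higher and 1044 lower. The list medians below can be read beside both values. With library size alone 6 were higher and 8 lower (median 0.19), and without the PT libraries that stood apart 13 were higher and 6 lower (median 0.40). The replicate block gave 37 higher and 7 lower of 49. Where 3 CPM values are given for a fraction, they are the lowest, the median and the highest of its 7 libraries, and ± gives an approximate standard error. Slc34a1, the main sodium-phosphate cotransporter of the brush border, had 3296, 4052 and 4311 CPM in PT and 1686, 1991 and 2416 CPM in Total, and every PT library lay above every Total library. Its log2 difference was 0.91 ± 0.21 (adjusted p = 0.000408). Exons of Pfn3 overlap Slc34a1 on the opposite strand. Since the strand setting of the counting was not given, reads of such pairs cannot be told apart, which by GENCODE M21 also touches Slc5a2, Slc3a1, Cubn, Cox5a, Ctsl, Pdzk1, Pklr, Pfkp, Hk1, Aldoa, Bcat1, Umod, Col4a3, Malat1, Bdh1 and Slco2b1. Slc34a3, another phosphate cotransporter, had 55.3, 114 and 137 CPM in PT and 35.1, 41.5 and 71.3 CPM in Total, and the PT and Total libraries overlapped. Its log2 difference of 1.07 ± 0.36 (adjusted p = 0.0137) did not pass with library size alone (adjusted p = 0.0618). The sodium-hydrogen exchanger gene Slc9a3 had 3.51, 4.43 and 12.1 CPM in PT and 1.99, 2.48 and 3.74 CPM in Total. The log2 difference was 1.197 ± 0.34 (adjusted p = 0.00433), and 0.62 (adjusted p = 0.143) without the libraries that stood apart.

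Hnf4a encodes a nuclear receptor that binds DNA motifs in the promoters of many proximal tubule genes. The promoters of Slc34a1, which holds the core motif AAAGTCC, and of Slc3a1 and Treh, which hold the longer motif CAAAGTCCA, are shown because they carry the letters that were searched. They were chosen after their values were seen. Each is the 250 bases before the start site, from RefSeq on GRCm38.p6, + strand, with the motif or its reverse complement GGACTTT in capitals. That of Slc34a1 is chr13:55399398-55399647, that of Slc3a1, the heavy chain of a cystine exchanger, is chr17:85028097-85028346, and that of Treh, a brush border trehalase, is chr9:44672983-44673232.
Slc34a1: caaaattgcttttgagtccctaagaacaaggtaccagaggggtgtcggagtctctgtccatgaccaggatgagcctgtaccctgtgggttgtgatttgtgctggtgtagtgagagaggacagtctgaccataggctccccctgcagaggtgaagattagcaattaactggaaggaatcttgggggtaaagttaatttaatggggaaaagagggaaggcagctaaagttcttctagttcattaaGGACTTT
Slc3a1: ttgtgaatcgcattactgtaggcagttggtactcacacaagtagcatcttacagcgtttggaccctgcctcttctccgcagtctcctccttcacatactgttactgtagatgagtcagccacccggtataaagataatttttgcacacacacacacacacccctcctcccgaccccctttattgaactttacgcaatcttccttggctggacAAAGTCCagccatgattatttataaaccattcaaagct
Treh: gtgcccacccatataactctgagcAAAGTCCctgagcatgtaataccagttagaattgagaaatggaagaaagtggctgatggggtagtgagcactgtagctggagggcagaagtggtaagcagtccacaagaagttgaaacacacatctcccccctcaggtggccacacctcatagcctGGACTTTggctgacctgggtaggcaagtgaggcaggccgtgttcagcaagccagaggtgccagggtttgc
The match of Slc34a1 fills the last 7 bases before the start site. On either strand AAAGTCC was found upstream of 1122 of 27025 genes with a promoter (4.15%), 10 of 94 matched genes of the proximal tubule lists (10.6%) and 3 of 106 matched genes of the other cell type lists (2.83%). Of the 120 and 163 tested genes of these lists, 94 and 106 had a promoter in the table. The longer motif CAAAGTCCA, which contains the core, was found upstream of 0.451% of all genes and of 2 of the 94, Slc3a1 and Treh. The 10 genes with the core did not share a direction. Slc34a1, Slc3a1, Treh, Spp2, Ggt1 (0.55, adjusted p = 0.0173) and Nr1h4 (0.75, adjusted p = 9.97e-06) were higher in PT. Ace (-0.70, adjusted p = 0.0286) and Ocrl (-0.59, adjusted p = 0.00156) were lower, and Slc5a1 and Abcc4 (0.39, adjusted p = 0.154) did not pass. These matches are a description of letters, and binding was not measured. Slc3a1 had 97.1, 124 and 184 CPM in PT and 78.2, 87.9 and 123 CPM in Total, a log2 difference of 0.50 ± 0.16 (adjusted p = 0.01). Treh had 34.6, 57.6 and 114 CPM in PT and 19.4, 50.2 and 81.9 CPM in Total, a log2 difference of 0.57 ± 0.21 (adjusted p = 0.0268). For both genes the PT and Total libraries overlapped.

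Markers of S1 and S2 were mostly higher in PT, and those of S3 were lower or did not pass, apart from Slc3a1. Of 9 tested S1 markers 7 were higher, 2 of them at least 2-fold, and 0 were lower (median 0.79). With library size alone 4 were higher, none 2-fold (median 0.49), and without the PT libraries that stood apart 5 were (median 0.61). Slc5a2, the glucose cotransporter SGLT2 of the early tubule, had 326, 479 and 604 CPM in PT and 195, 242 and 310.3 CPM in Total, and every PT library lay above every Total library. On the log2 scale the difference was 0.99 ± 0.22 (adjusted p = 0.000292). Gatm, which makes the creatine precursor guanidinoacetate, had 4156, 8341 and 9559 CPM in PT and 2370.1, 3785 and 4196 CPM in Total, with 1.06 ± 0.26 on the log2 scale (adjusted p = 0.00108). Spp2, a secreted phosphoprotein, had 323, 531 and 1712 CPM in PT and 143, 221 and 995 CPM in Total, and the PT and Total libraries overlapped. PT over Total gave a log2 difference of 1.23 ± 0.32 (adjusted p = 0.00218). The lactate cotransporter gene Slc5a12 did not pass, with 363, 641 and 933 CPM in PT, 314, 472 and 718 CPM in Total and a log2 difference of 0.31 ± 0.24 (adjusted p = 0.289), though it passed with the replicate number as a block (adjusted p = 0.00246).

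Of 6 S2 markers 5 were higher and 0 lower (median 0.67), none at least 2-fold. Without the PT libraries that stood apart 1 of the 6 passed, and with library size alone 0 did, with medians of 0.66 and 0.37. The organic anion transporter genes Slc22a6 and Slc22a8 take up drugs and metabolites from blood. Slc22a6 had 510.3, 1086 and 1839 CPM in PT and 319, 786 and 1294 CPM in Total, a log2 difference of 0.61 ± 0.25 (adjusted p = 0.0439). Slc22a8 had 359, 654 and 1107 CPM in PT and 168, 359.9 and 549 CPM in Total, a log2 difference of 0.99 ± 0.40 (adjusted p = 0.0424). Fractions overlapped for both genes. Neither passed without the libraries that stood apart (adjusted p = 0.0554 for Slc22a6 and 0.0866 for Slc22a8). Leaving out 1 library ended the call of Slc22a6 in 9 of 14 cases and that of Slc22a8 in 11, with adjusted p up to 0.0981 and 0.0823. Slc22a6 kept it only without female PT replicate 1, female Total replicate 3, male PT replicate 2 or 4 or male Total replicate 3, and Slc22a8 only without female PT replicate 1, male PT replicate 3 or male Total replicate 2.

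Of 14 S3 markers 7 were lower, 6 of them at least 2-fold, and 1, Slc3a1, was higher (median -0.61). Neither library size alone nor leaving out the PT libraries that stood apart left any higher. Bcat1, a cytosolic branched-chain aminotransferase, had 0.222, 0.611 and 2.25 CPM in PT and 3.72, 17.9 and 114 CPM in Total, a log2 difference of -4.83 ± 0.61 (adjusted p = 7.24e-08). The steroid hydroxylase gene Cyp7b1 had 0.316, 0.50 and 0.812 CPM in PT and 1.74, 16.2 and 52.7 CPM in Total, a log2 difference of -4.06 ± 0.45 (adjusted p = 1.59e-09). For both genes every PT library lay below every Total library. Slc22a7, an organic anion transporter gene, had 3.26, 14.4 and 107 CPM in PT and 31.7, 109 and 227 CPM in Total, a log2 difference of -2.46 ± 0.60 (adjusted p = 0.00111), and its fractions overlapped. The other 3 markers at least 2-fold lower were Slc22a13 (-2.30), Slc22a19 (-2.93) and Slc7a12 (-3.25). Further S3 markers did not pass. The cystine transporter gene Slc7a13 had 2.402, 271 and 442 CPM in PT and 1.65, 402 and 477 CPM in Total, a log2 difference of -0.37 ± 0.34 (adjusted p = 0.387). The glucose cotransporter gene Slc5a1 had a log2 difference of -0.60 ± 0.28 (adjusted p = 0.077). In summed CPM, a PT library held a median of 183% (139 to 219.8%) of the mean Total level for S1 markers, 169% (120.3 to 219%) for S2 and 77.7% (42.6 to 112%) for S3. These percentages set each PT library against the mean Total library of its sex, with the range over the 7 libraries in brackets.

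**Figure D2:**
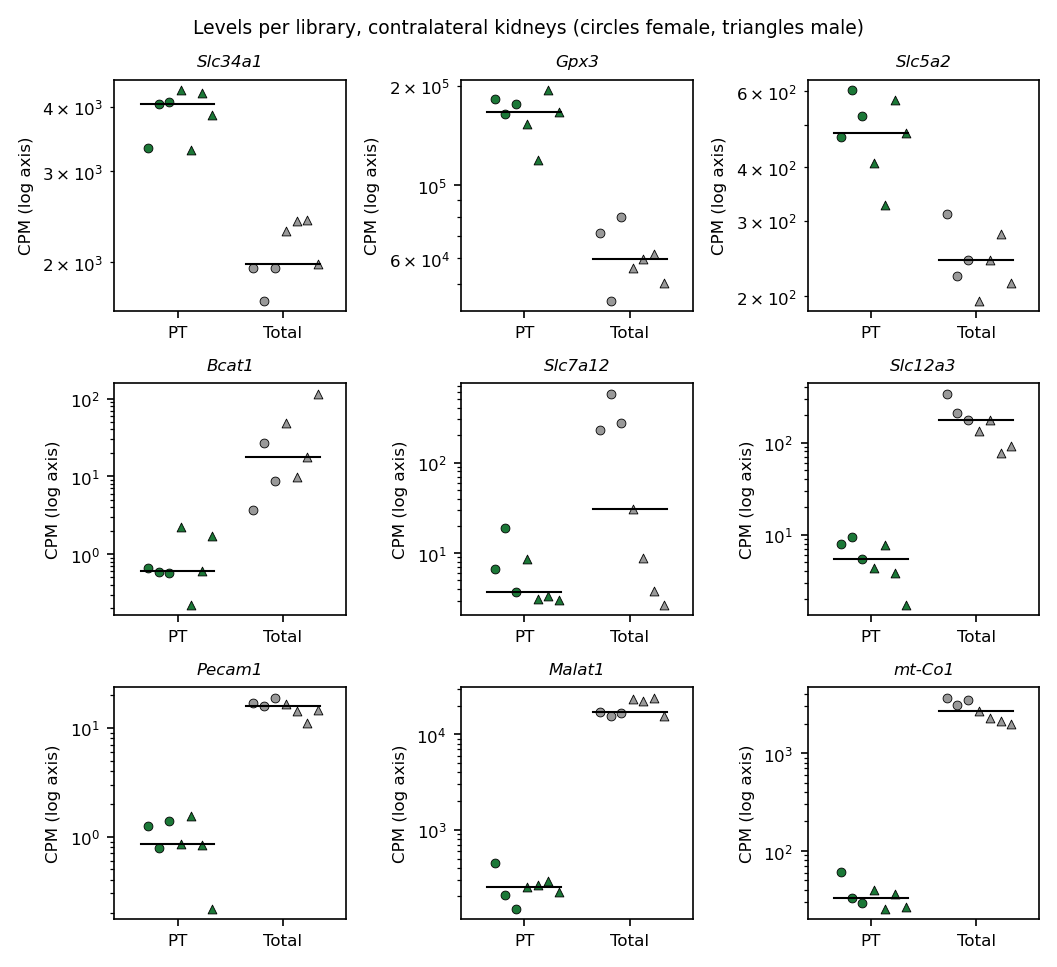
CPM on a log axis in each of the 14 contralateral libraries for named genes, PT left of Total, 1 point per library (circles female, triangles male) with the median of the 7 as a bar. Slc34a1, Gpx3 and Slc5a2 show every PT library above every Total library, Slc7a12 overlaps, and Bcat1, Slc12a3, Pecam1, Malat1 and mt-Co1 show every PT library below.

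Receptor-mediated endocytosis recovers filtered proteins, and its genes differed in direction. Of 14 tested, 9 were higher, 1 of them at least 2-fold, and 2 were lower (median 0.62). Lrp2, which encodes the receptor megalin, was one of the lower ones, with 224, 306 and 565 CPM in PT, 347, 526 and 729 CPM in Total and a log2 difference of -0.57 ± 0.20 (adjusted p = 0.0206). Its call was lost without female PT replicate 2 (adjusted p = 0.0811), without female Total replicate 3 (adjusted p = 0.0522), and without male Total replicate 2 (adjusted p = 0.0608). Cubn, its partner receptor cubilin, had 39.1, 84.3 and 174 CPM in PT and 48.9, 82.8 and 129.9 CPM in Total, a log2 difference of -0.03 ± 0.17 (adjusted p = 0.901). Amn, the amnionless subunit that carries cubilin to the surface, had 37.7, 119 and 178 CPM in PT and 21.4, 50.7 and 83.9 CPM in Total, a log2 difference of 1.196 ± 0.32 (adjusted p = 0.00281). The fractions overlapped for all 3 genes. The adaptor Dab2 (0.67), the megalin chaperone Lrpap1 (0.54) and the lysosomal proteases Ctsl (0.84) and Lgmn (0.73) were higher.

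Of 23 brush border enzymes and scaffold genes 12 were higher, none of them 2-fold, and 3 were lower, 2 of them at least 2-fold (median 0.55). The higher count was 5 with library size alone (median 0.24) and 18 with the replicate block. Mep1b, the beta subunit of the metalloprotease meprin, had 1.201, 5.19 and 15.3 CPM in PT and 18.9, 39.3 and 46.7 CPM in Total, and every PT library lay below every Total library. The difference on the log2 scale was -2.93 ± 0.38 (adjusted p = 6.80e-08), while Mep1a, the alpha subunit, had 0.18 ± 0.15 (adjusted p = 0.348). The membrane metallopeptidase gene Mme had 2.27, 14.4 and 20.3 CPM in PT and 12.96, 27.2 and 48.96 CPM in Total, a log2 difference of -1.200 ± 0.24 (adjusted p = 8.15e-05). Among the higher ones, the scaffold Pdzk1 had 793, 1268 and 1802 CPM in PT and 503, 687 and 966 CPM in Total, and its log2 difference was 0.83 ± 0.20 (adjusted p = 0.000691).

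Of 20 transcription factors and nuclear receptors of the proximal tubule 6 were higher, 2 were lower and none changed 2-fold, with a median of 0.17 that turned to -0.14 with library size alone. The replicate block gave 9 higher and 5 lower, and library size alone gave 3 higher and 5 lower. In the unblocked test 16.6% of all tested genes were higher and 30% lower. The median was 0.20 over the 6501 tested genes with a Total mean of at least 20 CPM. Hnf4a had 511, 602 and 682 CPM in PT and 374, 466 and 495 CPM in Total, and every PT library lay above every Total library. Its log2 difference of 0.47 ± 0.13 (adjusted p = 0.00222) fell short with library size alone (0.16, adjusted p = 0.349). The genes lower in the unblocked test were Ppargc1a, a coactivator of mitochondrial genes, at -0.87 ± 0.15 (adjusted p = 1.38e-05) and Lhx1, a factor of nephron development, at -0.59 ± 0.13 (adjusted p = 0.000257).

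Metabolic genes of the proximal tubule were higher by less than 2-fold as a rule. Of 15 genes of gluconeogenesis and fructose metabolism 9 were higher and 0 lower (median 0.58). Pck1, which starts gluconeogenesis from oxaloacetate, had 1988, 2917 and 7779.6 CPM in PT and 1226, 1808 and 2720.5 CPM in Total, a log2 difference of 0.93 ± 0.30 (adjusted p = 0.00961). The fructose bisphosphatase gene Fbp1 had 4703, 7014 and 9047 CPM in PT and 3374, 4194 and 5534 CPM in Total, a log2 difference of 0.78 ± 0.25 (adjusted p = 0.00987). Of 27 genes of amino acid, creatine and vitamin D metabolism 21 were higher, 2 of them at least 2-fold, and 1 was lower (median 0.77). Gamt, which methylates guanidinoacetate to creatine, had 30.2, 37.9 and 75.9 CPM in PT and 13.6, 17.9 and 26.04 CPM in Total, and every PT library lay above every Total library. Its log2 difference was 1.23 ± 0.20 (adjusted p = 3.63e-06). The exception was Aadat, an aminotransferase of lysine and kynurenine breakdown, with 167, 268 and 372 CPM in PT and 207, 442 and 2029 CPM in Total. The log2 difference was -1.18 ± 0.33 (adjusted p = 0.00387), and -0.70 (adjusted p = 0.0669) without female Total replicate 2, the library with the highest level.

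Of 36 genes of fatty acid oxidation and ketogenesis 21 were higher and 1, Bdh1, was lower (median 0.45). The enoyl-CoA isomerase gene Eci1 had 291, 423 and 752 CPM in PT and 207, 233 and 287 CPM in Total, a log2 difference of 0.90 ± 0.23 (adjusted p = 0.00113). Of 35 nuclear-encoded subunits of the respiratory chain 25 were higher and 0 lower (median 0.54). Cox5a, a subunit of cytochrome c oxidase, had 469, 984 and 1162 CPM in PT and 211, 504 and 679 CPM in Total, and the PT and Total libraries overlapped. On the log2 scale the difference was 0.99 ± 0.30 (adjusted p = 0.00699). With library size alone the higher counts fell to 2 for gluconeogenesis, 12 for amino acid metabolism, 5 for fatty acid oxidation and 8 for the respiratory chain, with medians of 0.26, 0.45, 0.14 and 0.23.

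Glycolysis genes were called in the unblocked test in shares close to those of all genes, and some named isoenzymes differed in direction. Of 15 tested genes 3 were higher, or 6 with the replicate block, and 5 were lower, 4 of them at least 2-fold, with a median of 0.14 that turned to -0.19 with library size alone. Over all tested genes 16.6% were higher, 30% were lower and 22.9% were at least 2-fold lower. Pkm, the pyruvate kinase of most tissues, had 9.24, 13.8 and 17.7 CPM in PT and 145, 174 and 257 CPM in Total, and every PT library lay below every Total library. PT over Total gave a log2 difference of -3.904 ± 0.22 (adjusted p = 1.58e-17), while Pklr, the liver and red cell form counted in the gluconeogenesis list, was higher at 0.88 ± 0.31 (adjusted p = 0.0203). The hexokinase gene Hk1 had 2.65, 3.92 and 5.74 CPM in PT and 39.3, 56.5 and 91.2 CPM in Total, a log2 difference of -3.86 ± 0.19 (adjusted p = 1.02e-18). Pfkp, the platelet form of phosphofructokinase, was lower at -1.68 ± 0.32 (adjusted p = 5.38e-05). Aldoa, a glycolytic aldolase of muscle and other tissues, did not pass, at 0.06 ± 0.15 (adjusted p = 0.78).

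Transcripts made inside mitochondria had the most negative median of all lists. All 10 tested of 15 listed were at least 2-fold lower, with a median log2 difference of -6.65. The 5 that were not tested had at most 0.221 CPM in any of the 14 libraries. mt-Co1, the first subunit of cytochrome c oxidase, had 25.6, 33.3 and 60.8 CPM in PT and 1984, 2688 and 3644 CPM in Total, a log2 difference of -6.25 ± 0.29 (adjusted p = 1.72e-19). The large mitochondrial ribosomal RNA mt-Rnr2 had 87.7, 101 and 202 CPM in PT and 10938, 17787 and 29730 CPM in Total, a log2 difference of -7.28 ± 0.37 (adjusted p = 1.41e-18). For both genes every PT library lay below every Total library. Among genes with at least 5 CPM and no overlap within a sex, the 12 largest falls were 11 mitochondrially encoded transcripts and Malat1. Mitochondrially encoded genes took 0.0169 to 0.0426% of the counts in PT libraries and 2.13 to 4.85% in Total libraries.

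Nuclear long noncoding RNAs were lower as well: of 11 tested 8 were lower, 6 of them at least 2-fold, and 0 were higher (median -3.33). Malat1, a nuclear speckle RNA, had 148, 248 and 451 CPM in PT and 15573, 17120 and 24065 CPM in Total, and every PT library lay below every Total library. The difference on the log2 scale was -6.16 ± 0.38 (adjusted p = 2.88e-16). Neat1, the scaffold of paraspeckles, had 5.35, 9.96 and 24.3 CPM in PT and 66.1, 125 and 144 CPM in Total, a log2 difference of -3.33 ± 0.31 (adjusted p = 2.75e-11). Gm42418, which AY036118 overlaps on the opposite strand, did not pass (-0.05 ± 0.38, adjusted p = 0.938). Of 1179 tested genes that GENCODE M21 types as long noncoding 53 were higher and 489 lower, with a median of -0.76, beside -0.06 over 14220 protein-coding genes.

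Genes of the translation machinery, which every cell uses, had medians near that of all genes. Of 77 cytosolic ribosomal protein genes 3 were higher, or 9 with the replicate block, and 4 were lower (median -0.00). With library size alone 0 were higher and 24 lower (median -0.30), and without the PT libraries that stood apart 2 were higher and 2 lower (median -0.14). Their reads can be shared with pseudogenes, so single values are uncertain. Rpl10a, the ribosomal protein commonly fused to GFP in TRAP mice, had 2.34, 3.85 and 6.36 CPM in PT and 3.23, 4.72 and 5.92 CPM in Total, a log2 difference of -0.15 ± 0.19 (adjusted p = 0.554). The labels do not name the tagged protein, and CT025652.2 overlaps Rpl10a on the opposite strand. Of 25 translation factors 5 were higher and 2 lower (median 0.13). The block gave 9 higher and 4 lower, library size alone 1 higher and 9 lower (median -0.17), and leaving out the PT libraries that stood apart 3 higher and 1 lower (median 0.01). Of 13 snoRNA host genes 1 was higher and 4 lower (median -0.06, or -0.46 without the PT libraries that stood apart), and of 5 small structured RNAs 3 were lower. Beside the lists of this paragraph, 16.6% of all tested genes were higher and 30% lower, so the snoRNA host and translation factor counts do not set those lists apart. With the block 3 of the small structured RNAs were tested and 2 were lower.

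Several of the largest rises lay outside these lists. Gpx3, the glutathione peroxidase secreted to plasma by the kidney, was the most abundant gene of PT with a mean RPKM (reads per kilobase per M) of 67161, against 30551 in Total. Its CPM were 119040, 166760 and 194150 CPM in PT and 44581, 59885 and 80161 CPM in Total, and every PT library lay above every Total library. The log2 difference was 1.44 ± 0.23 (adjusted p = 2.94e-06). Gpx1, the cytosolic peroxidase, had 10626, 15385 and 22670 CPM in PT and 3939, 6121 and 9143 CPM in Total, a log2 difference of 1.35 ± 0.24 (adjusted p = 1.28e-05). Msrb1, a methionine sulfoxide reductase, had 129, 246 and 498 CPM in PT and 51.1, 116 and 181 CPM in Total, a log2 difference of 1.52 ± 0.21 (adjusted p = 1.65e-07). Akr7a5, an aldehyde reductase, had 481, 535 and 946 CPM in PT and 141, 222 and 396 CPM in Total, a log2 difference of 1.45 ± 0.25 (adjusted p = 1.17e-05).

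The largest rise among genes with at least 5 CPM and no overlap within a sex, that of Sod1, rested on the libraries that stood apart. Sod1, the copper-zinc superoxide dismutase, had 311, 373 and 2893 CPM in PT and 194, 249.7 and 279.9 CPM in Total, and every PT library lay above every Total library. Its log2 difference was 2.08 ± 0.61 (adjusted p = 0.00573), and 0.56 (adjusted p = 0.405) without them. Leaving out female PT replicate 3 alone gave an adjusted p of 0.0748, and the replicate block gave 0.0548. Spink1, a trypsin inhibitor, had 589, 770.2 and 2126 CPM in PT and 257, 334 and 589.9 CPM in Total, a log2 difference of 1.596 ± 0.34 (adjusted p = 0.00024) that was 0.99 (adjusted p = 0.0112) without the libraries that stood apart. The other named rises were Chchd10, a mitochondrial protein gene (1.4996 ± 0.30), the retinol receptor gene Stra6 (1.46 ± 0.35), the extracellular matrix gene Hmcn2 (1.39 ± 0.31), the mitochondrial ribosomal protein gene Mrps34 (1.36 ± 0.28) and the antisense RNAs Gm15972 (1.31 ± 0.26) and Gm11513 (1.303 ± 0.30), on the log2 scale. Fth1, the ferritin heavy chain, was lower in PT and was the most abundant gene of Total by RPKM (8173 in PT and 31846 in Total). It had 7430.5, 9469 and 12436 CPM in PT and 21481, 30490 and 39930 CPM in Total, and its log2 difference was -1.62 ± 0.23 (adjusted p = 1.70e-07).

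Markers of the later nephron were far lower in PT. Of 10 thick ascending limb markers 9 were at least 2-fold lower and 1, Cldn10, was higher (median -3.96). Umod, the uromodulin of the limb, had 15.99, 39.5 and 48.6 CPM in PT and 298, 604 and 1091 CPM in Total, a log2 difference of -4.37 ± 0.22 (adjusted p = 1.41e-18). Slc12a1, the bumetanide-sensitive cotransporter, had 3.89, 9.897 and 13.6 CPM in PT and 71.7, 136 and 262 CPM in Total, a log2 difference of -4.35 ± 0.30 (adjusted p = 7.77e-15). For both genes every PT library lay below every Total library. Cldn10, a claudin that the proximal tubule also expresses, had 282, 377 and 630.4 CPM in PT and 212, 303 and 425 CPM in Total (0.52 ± 0.15, adjusted p = 0.00482). Of 10 distal convoluted tubule markers all 10 were lower, 9 at least 2-fold (median -4.48). Slc12a3, the thiazide-sensitive cotransporter, had 1.73, 5.5002 and 9.44 CPM in PT and 77.5, 175 and 336 CPM in Total, a log2 difference of -4.87 ± 0.27 (adjusted p = 2.37e-17).

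In the collecting duct 10 of 11 principal cell markers, all but Aqp3, (median -3.47) and 15 of 15 intercalated cell markers (median -4.90) were at least 2-fold lower. Aqp2, the water channel of principal cells, had 1.08, 3.83 and 10.9 CPM in PT and 14.8, 17.8 and 41.4 CPM in Total, a log2 difference of -2.21 ± 0.55 (adjusted p = 0.00141). Atp6v1g3, a proton pump subunit of intercalated cells, had 4.599, 9.44 and 14.8 CPM in PT and 184, 257 and 364 CPM in Total, a log2 difference of -4.79 ± 0.26 (adjusted p = 1.14e-17). For both genes every PT library lay below every Total library. As summed CPM, the PT libraries held 5.26% (3.95 to 6.58%) of the Total level for distal convoluted tubule markers, 3.62% (2.48 to 6.09%) for intercalated, 18.4% (10.8 to 25.4%) for principal cell and 31.7% (15.8 to 45.9%) for thick ascending limb markers, the last with Cldn10 holding most of the PT sum.

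Of 14 podocyte markers 12 were lower, 10 of them at least 2-fold (median -1.45). Synpo, an actin-binding podocyte protein, had 2.61, 3.24 and 6.005 CPM in PT and 15.1, 21.3 and 29.8 CPM in Total, a log2 difference of -2.57 ± 0.17 (adjusted p = 2.12e-15). The summed podocyte markers of PT libraries stood at 61.8% (31.002 to 111%) of the Total level, with the basement membrane collagen gene Col4a3 among them at 34.8, 127 and 279.7 CPM in PT and 42.6, 113 and 196 CPM in Total.

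Vessel and stromal markers were lower throughout, apart from Ramp2 and Cspg4. Of 18 endothelial markers 17 were at least 2-fold lower (median -4.02), of 12 mural and renin cell markers 11 were (median -3.89), and of 12 fibroblast markers 12 were (median -3.88). Pecam1, an adhesion molecule of endothelium, had 0.216, 0.850 and 1.55 CPM in PT and 11.1, 15.7 and 18.8 CPM in Total, a log2 difference of -3.98 ± 0.24 (adjusted p = 1.10e-16). Renin, encoded by Ren1, had 0.550, 3.03 and 5.74 CPM in PT and 6.84, 41.04 and 104 CPM in Total, a log2 difference of -4.15 ± 0.55 (adjusted p = 1.46e-07). The fibroblast collagen gene Col1a1 had 0.60, 0.999 and 1.699 CPM in PT and 8.14, 14.7 and 22.01 CPM in Total, a log2 difference of -3.85 ± 0.28 (adjusted p = 2.08e-14). For all 3 genes every PT library lay below every Total library. The exceptions, Ramp2 (-0.17 ± 0.24, adjusted p = 0.605) and Cspg4 (0.11 ± 0.23, adjusted p = 0.734), did not pass.

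Of 19 macrophage and dendritic cell markers all 19 were at least 2-fold lower (median -3.48), of 19 lymphocyte markers 15 (median -3.60) and of 5 neutrophil markers 5 (median -4.91). The expression filter used all 42 libraries, obstructed kidneys included. In the block fit on the 14 contralateral libraries only 8 lymphocyte and 2 neutrophil markers were tested, and 7 and 2 were lower. Summed lymphocyte markers had medians of 1.62 CPM in PT and 18.8 CPM in Total. Summed neutrophil markers had 0.0836 and 4.55 CPM in the same order. C1qa, a complement subunit made by macrophages, had 0.198, 0.702 and 1.17 CPM in PT and 5.68, 7.62 and 14.04 CPM in Total, a log2 difference of -3.48 ± 0.39 (adjusted p = 3.54e-09). Cd74, the invariant chain of class II molecules, had 53.5, 75.1 and 204 CPM in PT and 204, 276 and 347 CPM in Total, a log2 difference of -1.68 ± 0.26 (adjusted p = 1.59e-06). Summed macrophage markers in PT stood at 19.9% (15.95 to 48.8%) of the Total level, endothelial at 9.62% (6.81 to 11.3%), fibroblast at 7.28% (4.63 to 11.2%) and lymphocyte markers at 8.57% (2.85 to 15.2%). Cd74 held a large part of the macrophage sum in PT, whose median was 128 CPM. Of 6 erythrocyte markers 5 were lower, of 6 urothelial markers 5, of 4 adipocyte markers 2 and of 2 adrenal cortex markers 1. Among all tested genes 30% were lower, and the adipocyte and adrenal lists are too short to set beside that share. The block fit tested 3 urothelial, 2 adipocyte and 1 adrenal cortex markers, of which 3, 1 and 1 were lower. Whether RNA of other cells carried into the bead fraction makes up these residual levels was not tested.

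**Figure D3:**
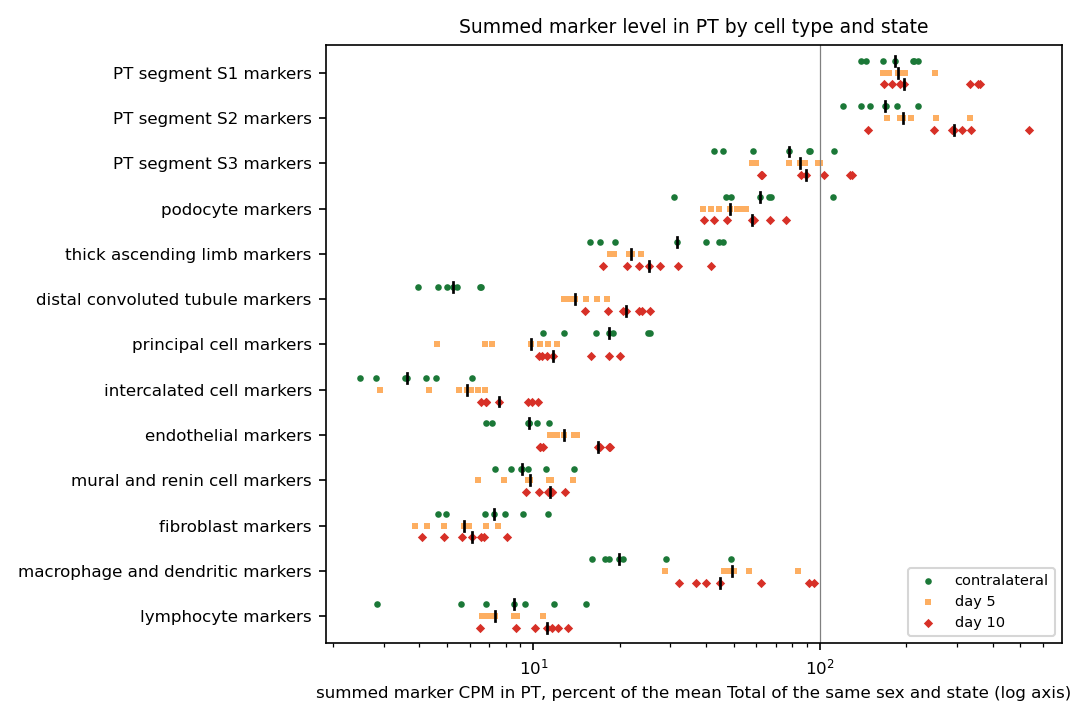
Summed CPM of each marker list in a PT library as a percentage of the mean Total library of the same sex and state (log axis), 1 point per PT library, for contralateral, day 5 and day 10 kidneys. Contralateral S1 markers lie at 139 to 219.8%, and distal convoluted tubule and intercalated cell markers at 2.48 to 6.58%.

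Injury and immediate early genes were compared between the fractions as well. The contrast shows which fraction holds a transcript, and injury of the tubule cells was not tested. Of 20 tubule injury genes 1, Prom1, was higher, or 3 with the replicate block, and 10 lower, 8 of them at least 2-fold (median -0.81). Among all tested genes 16.6% were higher, 30% lower and 22.9% at least 2-fold lower. Havcr1, the injury marker KIM-1, had 9.04, 12.05 and 17.9 CPM in PT and 9.403, 19.2 and 32.3 CPM in Total, a log2 difference of -0.75 ± 0.22 (adjusted p = 0.00519). Clu, the secreted chaperone clusterin, had 11.05, 17.3 and 23.9 CPM in PT and 231, 292 and 571 CPM in Total, a log2 difference of -4.32 ± 0.26 (adjusted p = 1.78e-16). Of 16 immediate early genes 8 were lower, 7 of them at least 2-fold, and 0 were higher (median -0.59). The counts were the same without the PT libraries that stood apart, with a median of -1.26. Egr1, an early growth response factor, had 0.264, 0.432 and 1.33 CPM in PT and 2.503, 3.98 and 4.41 CPM in Total, a log2 difference of -2.57 ± 0.34 (adjusted p = 7.44e-08).

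Within the proximal tubule and metabolic lists, differences varied with the length of the gene model, which CPM divided by RPKM gives. The median log2 difference was 0.84 over 20 genes under 1.5 kb, 0.57 over 104 genes of 1.5 to 3 kb, 0.46 over 92 genes of 3 to 6 kb and 0.05 over 31 genes over 6 kb. Lrp2 and Cubn belong to the longest, and Gpx1 outside the lists and Cox5a belong to the shortest. Over all 6501 tested genes with a Total mean of at least 20 CPM the medians were 0.41, 0.33, 0.20 and -0.09 in the same order. Spearman's rho across genes was -0.40 over 247 list genes and -0.36 over the 6501, as a description, since genes share the libraries. Why length moves with the difference was not tested.

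**Figure D4:**
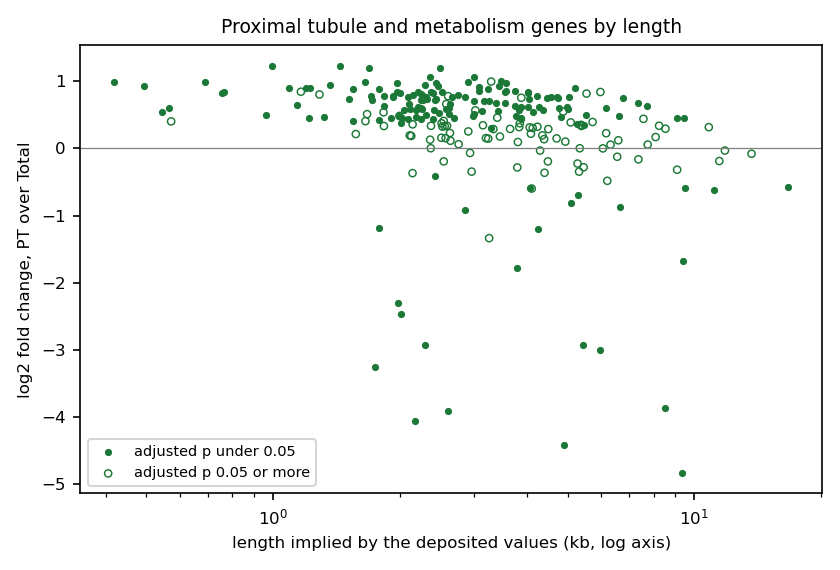
Log2 fold change of PT over Total (y axis) against the length of the gene model in kb (log x axis), 1 point per gene of the proximal tubule and metabolic lists, filled where the adjusted p was under 0.05. The median is 0.84 over the 20 genes under 1.5 kb and 0.05 over the 31 genes over 6 kb.

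In females 220 genes were at least 2-fold higher in PT (1.29%) and 3257 lower (19%), and in males 99 were higher (0.579%) and 3372 lower (19.7%). With library size alone the higher counts were 17 in females and 18 in males, and with the replicate block 296 and 167 in that order. The test of the difference, females minus males, called 5 genes higher (0.0292%) and 14 lower (0.0818%). With the replicate block 9 were higher and 50 lower, and the count fell to between 10 and 12 in each of the 6 cases when female PT replicate 1, female Total replicate 2 or 3, male PT replicate 3, or male Total replicate 2 or 4 was left out. Sex differences in mouse kidney are known to be large in the proximal tubule, mostly under androgens. Of the listed genes only Kap and Bdh1 were among the 19. Kap, the androgen-regulated protein of mouse proximal tubule, averaged 178 CPM in female PT and 1355 CPM in female Total, and 10144 CPM in male PT and 6454 CPM in male Total. The log2 difference was -2.93 in females and 0.65 in males, and the 2 differed by -3.58 ± 0.55 (adjusted p = 0.000934). Bdh1, a ketone body dehydrogenase, averaged 7.11 CPM in female PT and 62.3 CPM in female Total, and 70.7 CPM in male PT and 96.1 CPM in male Total. Its log2 differences of -3.12 in females and -0.44 in males differed by -2.68 ± 0.47 (adjusted p = 0.00355).

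Crispld2, a secreted protein gene, had the most negative difference. It averaged 0.892 CPM in female PT and 14.02 CPM in female Total, and 19.02 CPM in male PT and 21.97 CPM in male Total. The log2 differences of -3.97 in females and -0.21 in males differed by -3.76 ± 0.49 (adjusted p = 4.95e-05). Cd36, a fatty acid receptor, averaged 4.898 CPM in female PT and 36.97 CPM in female Total, and 484 CPM in male PT and 413 CPM in male Total. Its difference of -3.14 ± 0.58 (adjusted p = 0.00929) did not pass without the PT libraries that stood apart (adjusted p = 0.0724) or without female PT replicate 2 (adjusted p = 0.0555). In the other direction Nt5c3b, a nucleotidase gene, averaged 13.7 CPM in female PT and 24.1 CPM in female Total, and 0.971 CPM in male PT and 10.5 CPM in male Total. Its log2 differences of -0.82 in females and -3.44 in males differed by 2.62 ± 0.45 (adjusted p = 0.00272). Fkbp10 overlaps Nt5c3b on the opposite strand. Gsta4, a glutathione transferase gene, averaged 380.0 CPM in female PT and 269 CPM in female Total, and 17.8 CPM in male PT and 72.98 CPM in male Total. Its difference of 2.53 ± 0.55 (adjusted p = 0.0481) was lost in 12 of 14 cases when 1 library was left out.

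Of 10 genes known to be male-biased in mouse kidney 2, Cyp7b1 and Kap, were lower in PT over the sexes, and of 8 female-biased genes 2, Slc7a12 and Abcc3, were. These shares are not above the 30% of all tested genes that were lower. The call of Kap averages -2.93 in females with 0.65 in males. With the replicate block 4 female-biased genes were higher and 3 lower, and 1 male-biased gene was higher and 3 lower. Slc7a12, an amino acid transporter gene of the S3 list, averaged 9.84 CPM in female PT and 359 CPM in female Total, and 4.55 CPM in male PT and 11.5 CPM in male Total. Its log2 differences of -5.19 in females and -1.32 in males did not pass the test of their difference (-3.87 ± 0.95, adjusted p = 0.125).

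**Figure D5:**
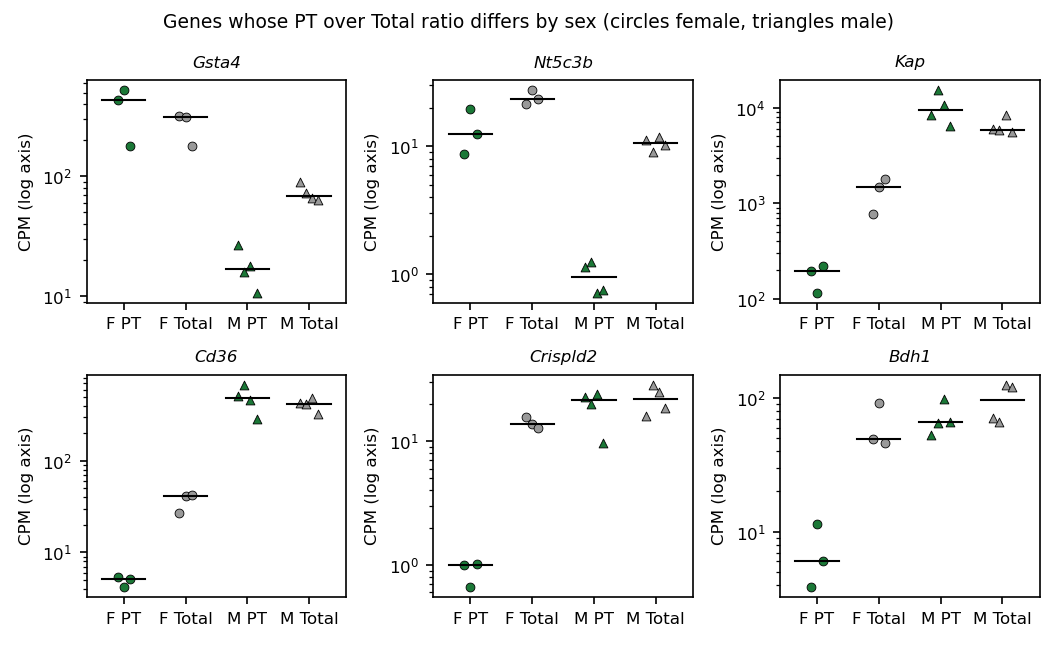
CPM on a log axis in the 14 contralateral libraries for 6 genes whose PT over Total difference passed the test between the sexes, with the 3 female (F) and 4 male (M) libraries of each fraction and the median as a bar. Kap, Cd36, Crispld2 and Bdh1 show female PT below female Total, and Gsta4 and Nt5c3b show male PT below male Total.

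The contrast of PT with Total in contralateral kidneys was then set against the same contrast in obstructed kidneys. In contralateral minus day 5 it was at least 2-fold higher for 213 genes (1.24%) and lower for 517 (3.02%), and in contralateral minus day 10 higher for 184 (1.08%) and lower for 801 (4.68%). With no fold minimum contralateral minus day 5 was higher for 265 genes (1.55%) and lower for 644 (3.76%), and contralateral minus day 10 higher for 233 (1.36%) and lower for 1182 (6.91%). Both use the same contralateral libraries. The labels do not say whether contralateral and obstructed libraries share animals, and the model treats them as independent. Rgs4, a regulator of G protein signalling, was low in contralateral PT: its log2 difference was -4.47 in contralateral, 0.26 at day 5 and 0.61 at day 10. Its mean level was 0.126 CPM in contralateral PT and 2.69 CPM in contralateral Total, 16.8 CPM in PT and 12.3 CPM in Total at day 5, and 25.5 CPM in PT and 16.4 CPM in Total at day 10. The contralateral contrast differed from that at day 5 by -4.73 ± 0.61 (adjusted p = 9.13e-07). Traf1, an adaptor of the tumour necrosis factor receptor, had log2 differences of -3.10 in contralateral, 0.84 at day 5 and 1.05 at day 10. Mapk11, a p38 kinase gene, had -3.55, 0.54 and 0.89 in the same order.

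In the opposite direction Slco2b1, an organic anion carrier, had log2 differences of -0.63 in contralateral, -4.67 at day 5 and -4.42 at day 10, and its contralateral contrast differed from that at day 5 by 4.04 ± 0.34 (adjusted p = 6.44e-11). Its mean level was 4.52 CPM in contralateral PT and 6.98 CPM in contralateral Total, 0.761 CPM in PT and 18.8 CPM in Total at day 5, and 0.929 CPM in PT and 18.98 CPM in Total at day 10. Gucy1a3, a subunit of the nitric oxide receptor guanylate cyclase, had log2 differences of -0.95, -4.90 and -4.62, and its partner subunit Gucy1b3 had -0.57, -4.35 and -3.99 in that order. Of the 20 tubule injury genes 2 were at least 2-fold higher and 8 at least 2-fold lower in contralateral minus day 5, and 2 and 9 in contralateral minus day 10. Havcr1 was among the lower ones, with log2 differences of -0.75 in contralateral, 1.09 at day 5 and 1.39 at day 10. Of the 16 immediate early genes 6 were at least 2-fold lower in each comparison.

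The level of other cells' markers in PT relative to Total also varied with state, and so did the levels behind it. Summed distal convoluted tubule markers in PT stood at 5.26% (3.95 to 6.58%) of the Total level in contralateral kidneys, 13.96% (12.8 to 18.05%) at day 5 and 21.02% (15.1 to 25.5%) at day 10. Their mean sums were 202 CPM in PT and 3899 CPM in Total of contralateral kidneys, 67.1 CPM in PT and 457 CPM in Total at day 5, and 75.9 CPM in PT and 363 CPM in Total at day 10, so that the percentage was higher at both days while the PT sum itself was lower. Macrophage markers stood at 19.9% (15.95 to 48.8%), 49.4% (28.7 to 83.6%) and 44.9% (32.1 to 94.99%) of the Total level in the same order. Their mean sums were 152 CPM in PT and 652 CPM in Total of contralateral kidneys, 3116 CPM in PT and 6224 CPM in Total at day 5, and 4894 CPM in PT and 8609 CPM in Total at day 10. Cd74 alone held a large part of the contralateral macrophage sum in PT. Principal cell markers stood at 18.4% (10.8 to 25.4%), 9.81% (4.61 to 12.1%) and 11.7% (10.4 to 20.1%), with mean sums of 113 CPM in PT and 671 CPM in Total of contralateral kidneys, 43.8 CPM in PT and 541 CPM in Total at day 5, and 64.9 CPM in PT and 481 CPM in Total at day 10. Their part in the differences between states was not tested.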

How the data were processed

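RNA of PT (bead-bound) and Total fractions of mouse renal cortex was sequenced in 42 libraries, of which the 14 contralateral ones are described here and the other 28 enter the model and the comparison of states. The deposited tables hold raw read counts per gene and RPKM for 40701 genes, of which 12632 were at 0 in every library, and 0 columns were left unmapped. Per the submitters' processing notes, STAR 2.0.4b and Subread with featureCounts 1.4.5 were used; the genome build, annotation and strand setting are not given in the sources used here. The authors' RPKM were used for levels between genes, for the length of the gene model (CPM divided by RPKM) and for an alternative.

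The deposited counts went into edgeR 4.0.16 (R 4.3.3): filterByExpr, TMM factors, and a quasi-likelihood model with 1 mean for each of the 12 groups of sex, state and fraction. Contrasts were PT over Total with both sexes at equal weight, per sex, females minus males, and contralateral minus day 5 or day 10, with Benjamini-Hochberg adjustment over 17110 genes. The fold threshold is applied to the estimate beside the adjusted p. Standard errors are the log2 fold change divided by the root of F. The steps were checked on simulated data. PT and Total libraries of the same sex and number deviated together from their group means over 9917 genes (r = 0.41 to 0.74, 7 of 7 best with their own number), so the number was taken as pairing, from the data rather than the labels, and a fit with it as a block stood beside the main one.

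The gene lists (38, plus selenoproteins, which were added after values were seen) and the comparison itself were chosen with earlier results of these data known. Genes named are fixed ones, the 12 that changed most each way at a mean of 5 CPM or more and no overlap within a sex, up to 3 members per list each way, genes of highest RPKM, and the 6 largest changes each way of a difference between groups. Some genes that this rule names are not reported here. Other genes named to account for a list were picked with their values in view. Settings also tried were other scalings, filters, thresholds, DESeq2 1.42.0, limma 3.58.1 on log2(RPKM + 1) or log2(RPKM + 0.1) and voom, the 14 libraries alone, the block, each library left out, and, added after seeing the data, both PT libraries that stood apart left out. Promoter sequences came from RefSeq on GRCm38.p6, and gene types from GENCODE M21 by symbol (39727 matched). Libraries held 10.4 to 28.1 M counts, so genes of low CPM are the least precise, and the spread between libraries, not counting error alone, sets the tests.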

Additional observations from a re-analysis of the deposited data

Results flagged for a closer look

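In the groups of 4 libraries, 128 values were checked for a library far from its group, and 2 were found, both in male PT replicate 2, 1 of the PT libraries that stood apart. Chance alone gives some such values. Rpl10a had 5.69 CPM there, against 3.78 to 4.05 CPM in the other 3 male PT libraries. The summed snoRNA host genes had 379 CPM there, against 131 to 167 CPM in the other 3.

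The PT over Total difference of 10 named genes differed between the sexes by edgeR's interaction test, as females minus males on the log2 scale. It was lower in females for Crispld2 (-3.76), Kap (-3.58), Cd36 (-3.14), Itih5 (-2.91), Bdh1 (-2.68) and Serinc2 (-2.61), and higher for Nt5c3b (2.62), Gsta4 (2.53), Frmd4a (2.01) and Utrn (1.89). The adjusted p ran from 4.95e-05 for Crispld2 to 0.0481 for Gsta4, Frmd4a and Utrn. With 1 library left out, the call was lost in 12 of 14 cases for Gsta4, Serinc2 and Utrn and in 11 for Frmd4a, with adjusted p up to 0.194, 0.242, 0.165 and 0.176 in that order. None of the 4 passed without female PT replicate 1 or 2, female Total replicate 1 or 3, male PT replicate 3, or male Total replicate 1, 2 or 4.

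Against day 5, the contralateral difference was lower, by the same kind of test, for Rgs4 (-4.73), Rasd2 (-4.20), Mapk11 (-4.08), Slc44a3 (-3.98), Traf1 (-3.94) and Rhou (-3.80). It was higher for Ear2 (6.48), Arhgap36 (5.55), Slco2b1 (4.04), Gucy1a3 (3.95), Gucy1b3 (3.79) and Plbd1 (3.70). Against day 10 it was lower for Anxa8 (-5.29), Rgs4 (-5.08), Rasd2 (-4.48), Mapk11 (-4.44), Slc44a3 (-4.26) and Traf1 (-4.15), and higher for Ear2 (6.50), Arhgap36 (4.45), Col12a1 (4.24), Slc7a2 (3.93), Slco2b1 (3.79) and Col8a1 (3.70). Ear2 belongs to a family of near-identical genes and had a mean of 0.0511 CPM in contralateral PT and 0.0173 CPM in contralateral Total, so its fold change is uncertain.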

How the results depend on the processing

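The count of genes at least 2-fold changed in PT over Total was 4123, 198 of them higher and 3925 lower. With no minimum fold it was 7960 (2835 higher), with a filter of 5 CPM 2385 (128 higher, 2257 lower), and with limma on log2(RPKM + 1) 1081 (9 higher, 1072 lower). The higher count alone became 126 at an adjusted p under 0.01, 29 with library size only, 26 with limma on log2(RPKM + 0.1) and 417 with no filter. DESeq2, voom, RLE and upper-quartile factors kept all 3 counts within 1.5 times. In males 3471 genes became 5278 with no minimum fold, 2180 with the 5 CPM filter and 914 with limma on log2(RPKM + 1), which also took the 3477 of females to 1223. The sex difference, 19 genes, became 9 at an adjusted p under 0.01, 36 with DESeq2, 11 with limma on log2(RPKM + 1), 5 with voom and 10 in the 14 libraries alone. Contralateral minus day 5, 730 genes, became 1434 with limma on log2(RPKM + 0.1), split 1037 higher and 397 lower against 213 and 517 in the edgeR fit. Contralateral minus day 10, 985 genes, became 645 at an adjusted p under 0.01 and 1525 with limma on log2(RPKM + 0.1), split 960 and 565 against 184 and 801. On log2(RPKM + 1) the splits were 603 and 139 for day 5 and 634 and 229 for day 10.

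With each of the 14 libraries left out in turn the counts ran from 3989 to 4262 in all, 163 to 265 higher, 3771 to 4013 lower, 3187 to 3523 in males, 3077 to 3502 in females, 10 to 25 for the sex difference, 667 to 745 for day 5 and 876 to 1026 for day 10. The replicate block gave 59 genes for the sex difference and 3204 in all (214 higher, 2990 lower). The sex differences of Frmd4a (-0.062) and Utrn (-0.14) reversed with limma on log2(RPKM + 1). Other values of named genes were judged at the adjusted p and the minimum fold together. They counted as unchanged in 4331 cases, passed anew in 35 and fell short in 184. A call below the minimum fold, made on the adjusted p alone, could be lost and still count as unchanged. A value that had not passed could also change direction and count as unchanged, so these counts overstate how far single calls held. List medians kept within their spread in 865 cases and moved in 122, and summed markers in 101 and 16. The cause of these changes was not tested. Genes under 1 CPM rest on few counts, so their fold changes are the least certain.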

Other observations

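Selenoproteins, which carry selenocysteine and include peroxidases and deiodinases, were listed after the rise of Gpx3, Gpx1 and Msrb1 had been seen, so their count is a description. Of 20 tested 10 were higher in PT and 2 lower, 4 and 2 of them at least 2-fold, with a median log2 difference of 0.51, beside -0.07 over all genes. That median was 0.20 over the 6501 tested genes with a Total mean of at least 20 CPM. Sephs2, which makes the selenium donor, had 163, 252 and 290.5 CPM in PT and 95.7, 97.02 and 134 CPM in Total, and every PT library lay above every Total library. Its log2 difference was 1.24 ± 0.17 (adjusted p = 2.10e-07, edgeR). Gpx4, the lipid peroxidase, had 462, 569 and 668 CPM in PT and 247, 296 and 355 CPM in Total, a log2 difference of 0.94 ± 0.16 (adjusted p = 9.83e-06, edgeR). Sepn1, a selenoprotein of the endoplasmic reticulum, was lower, with 0.162, 0.591 and 1.12 CPM in PT and 1.49, 2.17 and 2.95 CPM in Total and a log2 difference of -2.01 ± 0.29 (adjusted p = 4.96e-07, edgeR). Dio2, the other lower one, had 0 CPM in every PT library and at most 0.442 CPM in Total.

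Replication-dependent histones, whose mRNAs have no poly(A) tail as a rule, gave counts that moved with the setting. Of 67 listed 27 were tested. Beside shares of 16.6% higher and 30% lower over all tested genes, 7 histones were higher and 7 lower, 1 and 6 of them at least 2-fold (median -0.11). With library size alone 1 was higher and 7 lower (median -0.40), without the PT libraries that stood apart 5 and 4 (median 0.06), and with the replicate block 7 and 4 of 18 tested (median 0.38). Hist1h2bc had 521, 752 and 964 CPM in PT and 283, 409 and 511 CPM in Total, and every PT library lay above every Total library, with a log2 difference of 0.94 ± 0.21 (adjusted p = 0.000399, edgeR). Hist2h4 had 0, 0.126 and 0.278 CPM in PT and 0.733, 1.03 and 2.09 CPM in Total, a log2 difference of -3.02 ± 0.56 (adjusted p = 3.10e-05, edgeR). Members of the family share sequence, so single values are uncertain.

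By gene type, 935 tested processed pseudogenes had a median log2 difference of 0.29, with 48 higher and 32 lower. The 17 tested snoRNAs had a median of -2.78, with 0 higher and 11 lower, and the 54 tested immunoglobulin V genes had -2.31, with 0 higher and 1 lower. Reads of a pseudogene can come from its parent gene.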
